A study of Komagataella pastoris with 3 samples.

Results

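The 73 genes described here were abundant in 24 h cultures of the yeast Pichia pastoris GS115 and at least 4-fold lower at 36 h. They were 73 of the 5040 genes with a value. They were chosen by their level at 24 h, which had to reach 1000 FPKM (a gene's sequenced fragments divided by its length and by the library's mapped fragments), and by their change from 24 to 36 h, a difference in log2(FPKM + 1) of -2 or less. Because these values chose the genes, the early fall is given as a description with no test. RNA was sequenced from wild-type GS115 cells cultured in YPD, a glucose-containing rich medium, and harvested 24, 36 or 48 h after inoculation. There was 1 library per time point, from cells of the same strain, genotype and medium. No value therefore has a replicate error, every comparison is between single libraries, and no p-value is given. FPKM is relative to the library. A lower value may stand for fewer transcripts in each cell or for fewer cells that hold the transcript. It may also stand for a larger part of the library taken by other transcripts, and these cannot be told apart.

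Pichia pastoris, now usually placed in Komagataella phaffii, is a methylotrophic yeast used to make recombinant proteins. In a batch culture, yeast cells first grow on the sugar of the medium and later slow down and enter stationary phase as nutrients run out. In Saccharomyces cerevisiae, where this is best known, transcripts of the protein synthesis machinery are among the most abundant during fast growth and are lowered when growth slows. The deposited table gives locus tags without gene names, and no tag could be matched to a name, so no function is assigned to any of the 73 genes. Growth and glucose were not part of the deposited table.

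The table covered 5040 genes, with totals between 760684 and 871921 FPKM per library, and its sequencing depth is unknown. None of the 73 genes was listed at 0 in any library. All of them passed the filter of at least 1 FPKM in at least 1 library that left 5028 genes for the comparisons, as their 24 h level requires.

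At 24 h the 73 genes had between 1151 and 6764 FPKM, with a median of 2678. At 36 h they had between 122 and 929 FPKM, with a median of 458, so the highest value at 36 h lay under the lowest at 24 h. At 48 h they had between 10.99 and 617 FPKM, with a median of 253. The ranges at 36 and 48 h overlapped, and 6 of the 73 genes were higher at 48 h than at 36 h. Ranked by FPKM within each library, 60 of the 73 were among the 100 most abundant genes at 24 h and none was at 36 or 48 h. Among the 500 most abundant genes there were 62 of them at 36 h and 32 at 48 h. Their median rank went from 59 to 296 and then 532. At 48 h their median of 253 FPKM stood above that of all genes, which was 51.6 FPKM, in a group chosen for a high 24 h level. It stood below the median of 700 FPKM of the 65 other genes with at least 1000 FPKM at 24 h.

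**Figure D1:**
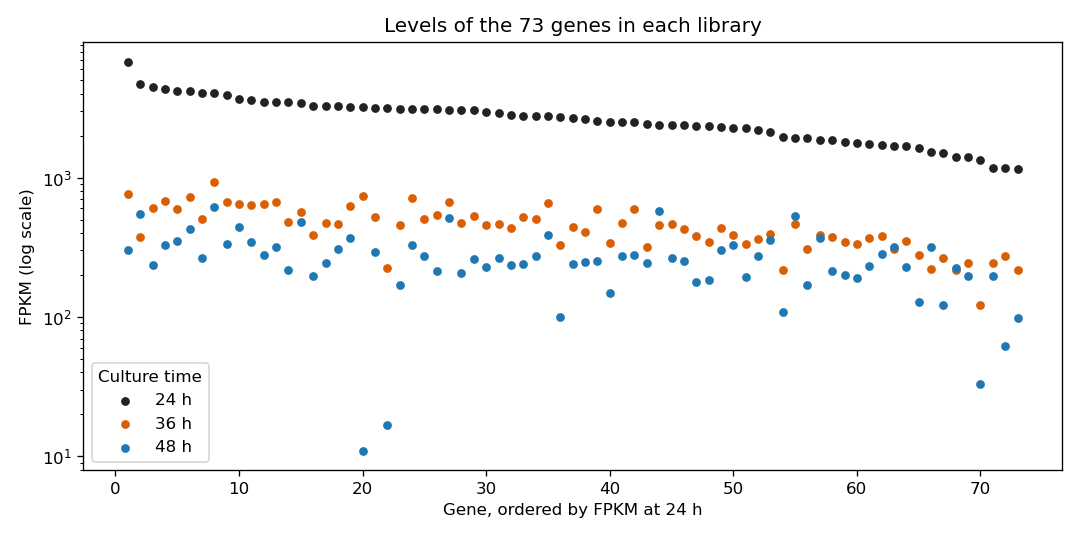
FPKM (log scale) of each of the 73 genes at 24, 36 and 48 h, 1 point per gene and library, ordered by the 24 h level. The 24 h points all lie above 1000 FPKM and the 36 h points between 122 and 929; most 48 h points lie somewhat lower, and 5 lie under 100 FPKM.

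Summed over the 73 genes, FPKM was 198616 at 24 h and 33248 at 36 h, a difference of 165369. The total over all genes was lower by 86194 FPKM, so all the other genes together were higher by 79175 FPKM. From 36 to 48 h the sum of the 73 genes was lower by a further 13823, at 19425 FPKM, which was 2.55% of the total. The other genes together were lower by 11221 FPKM in that interval. The first of these intervals is the one by which the genes were chosen. FPKM is relative to each library, so these sums and totals are not amounts of RNA. A relative value can be higher without more transcripts, so the higher sum of the other genes is not read as more transcripts. Nor was it a rise of most genes. Of all 5028 genes, 3025 were lower at 36 h than at 24 h and 2003 were higher.

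When all genes were classed by their level at 24 h, a 4-fold lower level at 36 h was more frequent in the higher classes. Of 3395 genes with 10 to 100 FPKM at 24 h, 3.15% were lower by 4-fold or more at 36 h. Among 120 genes with 500 to 1000 FPKM the share was 9.17%. It was 38.5% among the 52 genes with 1000 to 2000 FPKM, 60.0% among the 40 with 2000 to 3000 FPKM and 63.0% among the 46 with 3000 FPKM or more. Over all 5028 genes the share was 5.19%. The 24 h value enters both the class and the change, so nothing is read from these shares beyond the counts.

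**Figure D2:**
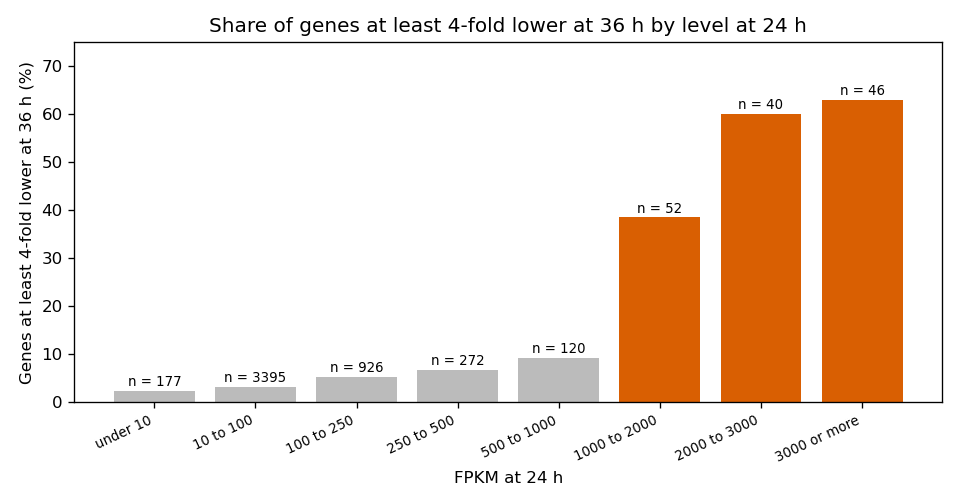
Share of genes (%) whose 36 h level was 4-fold or more below the 24 h level, in classes of FPKM at 24 h, with the number of genes in each class above the bar. The orange bars of the classes from 1000 FPKM, which hold the 73 genes, stand at 38.5%, 60.0% and 63.0%, against at most 9.17% in the classes below.

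Within the group the early fall spanned a narrow range, which the limit of -2 cuts on one side. The median change from 24 to 36 h was -2.53 on the log2(FPKM + 1) scale, with quartiles of -2.76 and -2.38. At 36 h the median gene of the group stood at 17.3% of its 24 h level, with a lowest of 7.13% and a highest of 24.0%. Levels at least 8-fold lower at 36 h were found in 7 of the 73 genes, or 9.59%, against 0.815% of all genes. The rule already requires a 4-fold lower level, so nothing is read from that difference. Among the 188 genes that met the same fall limit from under 1000 FPKM at 24 h, 34, or 18.1%, passed the 8-fold limit. Across the 73 genes, which are not independent replicates, Spearman's rho was 0.60 between the 36 and 48 h levels and 0.43 between 24 and 48 h. Between the 24 and 36 h levels, which the rule ties together, it was 0.80, and nothing is read from that value.

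In the later interval, which did not enter the choice of genes except through the 36 h library, most of the group was lower again. At 48 h 67 of the 73 genes stood below their 36 h level, 26 of them by 2-fold or more, which is 35.6% of the group against 13.0% of all genes. None of the 73 was at least 2-fold higher, against 13.5% of all genes. The median change was -0.86, with quartiles of -1.10 and -0.59, while all genes had a median of 0.033 and quartiles of -0.55 and 0.60. At 48 h the median gene of the group held 55.1% of its 36 h level. The counts describe 1 pair of libraries, and the difference from all genes has no test.

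The groups of genes that meet only 1 of the 2 limits of the rule had other values in that interval. The other 65 genes with at least 1000 FPKM at 24 h, whose early change was above -2, had a median later change of -1.05. The distance between their quartiles was 2.16, against 0.51 for the 73 genes. In this group 34 of the 65 genes, or 52.3%, were 2-fold or more below their 36 h level, against 13.0% of all genes. By 4-fold or more 21 of the 65, or 32.3%, were below it, against 3 of the 73 and 2.96% of all genes. The 188 genes that met the limit on the early fall from a start under 1000 FPKM had a median later change of 0.41. At 48 h 125 of them, or 66.5%, were above their 36 h level, against 51.6% of all genes. Of the 188 genes 16, or 8.51%, were 2-fold or more lower, against 13.0% of all genes. At least 2-fold higher were 39 of the 188, against 13.5% of all genes. Compared with 24 h, the 48 h level stood at a median of 9.46% in the 73 genes, 32.9% in the other 65 abundant genes and 20.0% in the 188 genes of lower start. The 3 groups were formed from the same libraries, so these are values side by side and not tests.

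**Figure D3:**
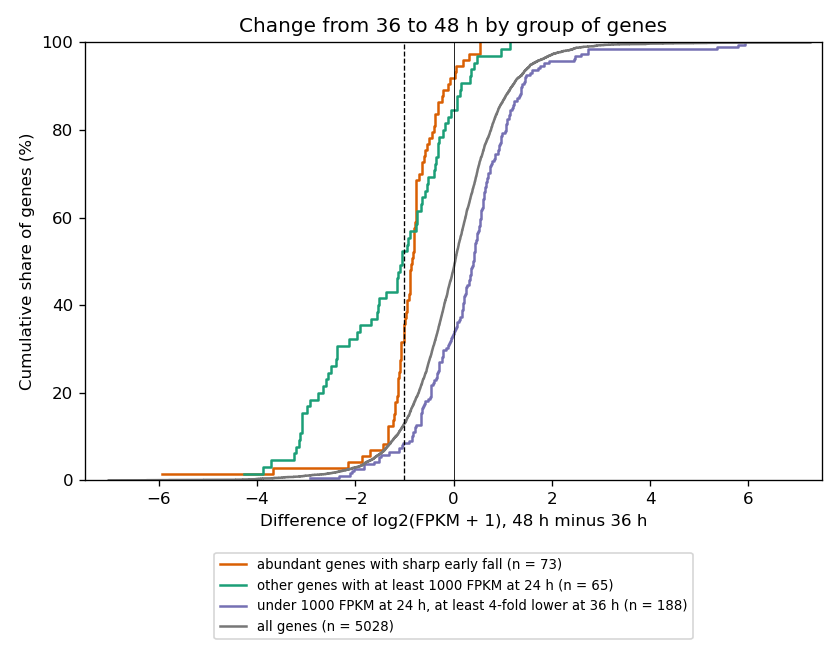
Cumulative share of genes (%) by the difference of log2(FPKM + 1) between 48 h and 36 h, for the 73 genes, the 65 other abundant genes, the 188 genes of lower start and all 5028 genes; the dashed line marks a 2-fold fall. The curve of the 73 genes is the steepest in its middle part, where it passes from its quartile at -1.10 to that at -0.59.

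Over the whole course all 73 genes were lower by 2-fold or more, a limit passed by 28.0% of all genes. By 4-fold or more 72 of them were lower, against 9.90% of all genes, and by 8-fold or more 54 were, against 3.52% of all genes. This comparison shares the 24 h library with the rule, and nothing about the group is read from these counts. The gene outside the 4-fold limit was PAS_chr3_0595, with 1938, 463 and 532 FPKM at the successive times. It kept the largest part of its 24 h level, 27.5%. By contrast 42 of the 73 genes held under 10% of theirs.

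Taking both intervals together, 52 of the 73 genes lay within 0.5 log2 units of the group's median change in each interval. These 52 genes had from 1151 to 4498 FPKM at 24 h. Their range was 217 to 929 FPKM at 36 h, and 98.3 to 617 FPKM at 48 h. This window held 83 genes of all those measured, so 31 of them were not in the group. These 31 had a median of 102 FPKM at 24 h, 27 of them had under 500 FPKM and the highest had 859 FPKM. The window was built on the group's own medians, and nothing about the group is read from how many genes it held. Of the 21 genes of the group outside the window, 7 had a lower early change, 12 a higher and 6 a lower later change, with 4 genes outside in both intervals.

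**Figure D4:**
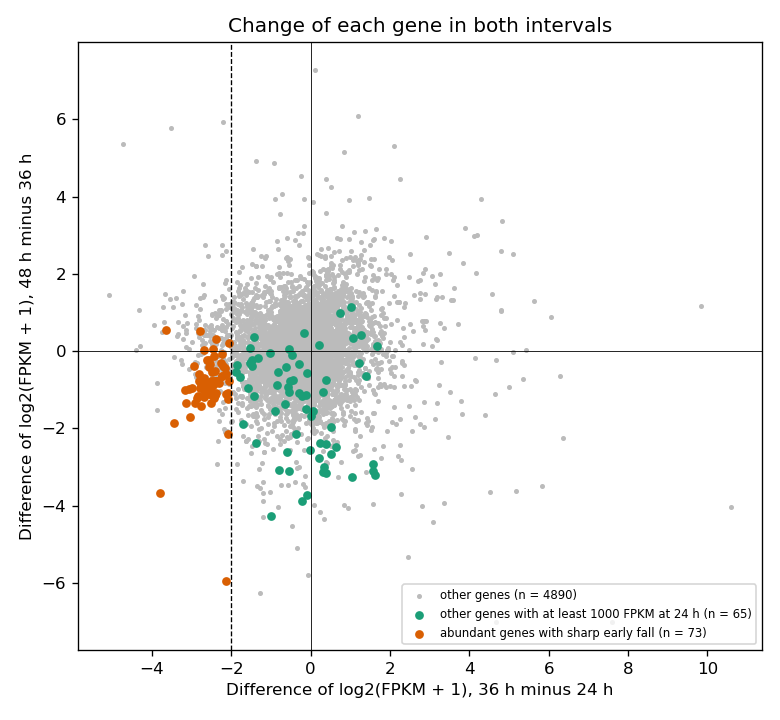
Difference of log2(FPKM + 1) for each gene, 36 h minus 24 h on the horizontal and 48 h minus 36 h on the vertical axis, 1 point per gene. The 73 genes form a compact cloud left of the dashed limit at -2 with quartiles at -1.10 and -0.59 on the vertical axis, with PAS_chr2-1_0016 and PAS_chr1-1_0382 far below it.

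The most abundant gene of the group, PAS_chr3_1200, had successive levels of 6764, 764 and 301 FPKM. It was the seventh gene of the whole library at 24 h and its changes of -3.14 and -1.34 were both lower than the group's medians. PAS_chr2-1_0658 had 4498, 601 and 237 FPKM at the successive times. Its later change of -1.34 was the same to 2 decimals as that of PAS_chr3_1200, and both held 39.4% of their 36 h level at 48 h. PAS_chr2-1_0481 had 4341, 684 and 327 FPKM. PAS_chr3_0762 had 4201, 596 and 349 FPKM, and PAS_chr2-1_0779 had 4148, 726 and 425 FPKM. In both genes of this last pair 58.6% of the 36 h level was left at 48 h.

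The other gene among the 6 highest at 24 h, PAS_chr2-1_0522, differed from these in the later interval. Its levels were 4691, 376 and 548 FPKM. Its early change of -3.64 was the second largest of the group, and its later change of 0.54 the highest. At 36 h it thus stood below the group's median and at 48 h among its 3 highest genes.

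The largest early change, -3.80, was that of PAS_chr1-1_0382, with 3160, 225 and 16.8 FPKM. Unlike PAS_chr2-1_0522 it had a later change far below 0, of -3.67, and at 48 h it held 0.532% of its 24 h level. PAS_chr2-1_0482 had 1344, 122 and 33.0 FPKM and was the lowest of the group at 36 h. PAS_chr3_0194 had 1947, 217 and 108 FPKM. PAS_chr1-4_0239 had 3262, 388 and 198 FPKM. For these last genes the early changes were -3.45, -3.16 and -3.07 in that order, and the later change of both PAS_chr3_0194 and PAS_chr1-4_0239 was near the group's median, at -0.996 and -0.97.

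A few genes had much lower later changes than the rest. PAS_chr2-1_0016 had 3206, 732 and 10.99 FPKM, of which the first 2 values were well inside the range of the group. Its later change was -5.93, and its successive ranks in the libraries were 35, 154 and 4609. PAS_chr3_0890 had 1166, 276 and 61.8 FPKM, with nearly equal changes of -2.08 and -2.14 in both intervals. With PAS_chr1-1_0382 these were the 3 genes of the group that were 4-fold or more below their 36 h level, or 4.11% of the group against 2.96% of all genes, a share near that of all genes. With a pseudocount of 10 the later change of PAS_chr3_0890 was -1.99, just short of this limit.

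The genes next in order had later changes nearer to the group's median. PAS_chr2-1_0482, described above, had a later change of -1.86. PAS_chr4_0094 had 2738, 330 and 101 FPKM at the successive times and a later change of -1.70. PAS_chr1-1_0345 had 3121, 459 and 170 FPKM and a later change of -1.43. In all these genes the 48 h level was at most 37.0% of the 36 h level.

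At the other end 6 genes were above their 36 h level at 48 h, none of them by 2-fold. PAS_chr2-1_0522 came first, followed by PAS_chr2-2_0059 with 1520, 221 and 319 FPKM. PAS_c131_0011 had 2393, 460 and 575 FPKM, a later change of 0.32. PAS_chr3_0595 had a later change of 0.20. PAS_chr4_0107, with 1683, 308 and 318 FPKM, and PAS_chr4_0131, with 1416, 218 and 224 FPKM, were close to level, with later changes of 0.049 and 0.037. In all 6 genes the 48 h level was still at most 27.5% of the 24 h level.

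The 6 highest genes at 48 h were mostly those with a small later change rather than those highest at 24 h. PAS_chr1-1_0439 led with 617 FPKM, after 4049 at 24 h and 929 at 36 h, where it was also the highest of the group. PAS_c131_0011, PAS_chr2-1_0522 and PAS_chr3_0595 followed. PAS_chr3_0054 had 3075, 666 and 509 FPKM. PAS_chr2-1_0783 had 3428, 563 and 482 FPKM. Of these 6 genes only PAS_chr2-1_0522 was also among the 6 highest at 24 h.

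Just inside the limit on the early fall stood PAS_chr2-1_0486, with 2757, 662 and 388 FPKM and an early change of -2.06. PAS_chr3_0595 and PAS_chr4_0456, the latter with 2489, 592 and 277 FPKM, were next at -2.06 and -2.07. PAS_chr3_0890, PAS_chr2-1_0086 and PAS_chr1-1_0439 followed between -2.08 and -2.12. Just outside it were PAS_chr3_1048, with 3511, 954 and 661 FPKM and an early change of -1.88, and PAS_chr3_0091, with 2814, 782 and 613 FPKM and -1.84. Next came PAS_FragB_0052, the most abundant gene of the 24 h library, with 16025, 4692 and 2969 FPKM and an early change of -1.77. No gene with at least 1000 FPKM at 24 h had an early change between -2.06 and -1.88.

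The limit on level was treated likewise. The lowest 24 h values inside it were those of PAS_FragD_0013, with 1151, 217 and 98.3 FPKM, PAS_chr3_0890, and PAS_chr2-2_0326, with 1176, 245 and 197 FPKM. PAS_chr2-1_0482, PAS_FragD_0014 and PAS_chr4_0131 came next, the highest of them at 1416 FPKM. Just outside, with early changes between -2.16 and -2.23, were PAS_chr1-4_0490 with 934, 198 and 63.6 FPKM, PAS_chr3_0596 with 859, 192 and 88.2 FPKM, and PAS_chr2-2_0229 with 855, 184 and 73.2 FPKM. All 3 had later changes between -1.62 and -1.11, lower than the median of the group.

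The other 39 genes of the group had narrower ranges, as the genes above were picked at the ends of the ranges or for their neighbours. The 15 of them with at least 3000 FPKM at 24 h had from 464 to 708 FPKM at 36 h and from 208 to 444 FPKM at 48 h. The 17 with 2000 to 3000 FPKM at 24 h had from 317 to 519 FPKM at 36 h and from 148 to 359 FPKM at 48 h. The 7 with 1000 to 2000 FPKM had from 267 to 390 FPKM at 36 h and from 122 to 370 FPKM at 48 h. The bands of the 3 level classes overlapped more at 48 h than at 36 h. All 39 had later changes below 0, between -1.34 and -0.077, and in 13 genes the later change was past the 2-fold limit. Over the whole group, this limit was passed by 14 of the 29 genes that started at 3000 FPKM or more. It was passed by 7 of the 24 that started between 2000 and 3000 FPKM and by 5 of the 20 that started lower. The share was 13.0% over all genes and 52.3% in the other 65 abundant genes. Differences between the level classes were not tested.

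The place of the genes in the genome, which the rule did not use, can be read only from the prefix and the number of the tags. By prefix, chromosome 1 held 22 of the 73 genes, chromosome 2 held 19, chromosome 3 held 9 and chromosome 4 held 20, while 3 had other prefixes. These were 1.52% of the 1451 genes with a chromosome 1 tag, 1.43% of 1333 on chromosome 2, 0.764% of 1178 on chromosome 3 and 2.11% of 946 on chromosome 4. Chromosome 4 thus had the highest and chromosome 3 the lowest share among the 4 chromosomes, and no test was made of the difference. The median later change was -0.84, -0.89, -0.70 and -0.89 for chromosomes 1 to 4, and -0.32 for the 3 genes with other prefixes. On chromosome 2 it was -1.06 for the 15 genes with the prefix chr2-1 and -0.56 for the 4 with the prefix chr2-2. In that order 8 and 0 genes were 2-fold or more lower, against 35.6% of the group and 13.0% of all genes. On chromosome 1 it was -0.88, -0.77 and -0.82 for the 8, 5 and 9 genes with the prefixes chr1-1, chr1-3 and chr1-4. In that order 3, 2 and 2 genes were 2-fold or more lower. With so few genes per prefix, nothing is read from these differences.

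Some of the 73 genes had another gene of the group at the next tag number. Among 4794 pairs of genes with consecutive tag numbers, 135 held at least 1 gene of the group and 6, or 0.125%, held 2. Whether 6 is more than a group of 73 among 5040 genes would give by its size alone was not tested. The 11 genes in these 6 pairs were 15.1% of the group. PAS_chr4_0412, PAS_chr4_0413 and PAS_chr4_0414 formed a run of 3. In this order they had 1709, 3496 and 2492 FPKM at 24 h. Their levels were 381, 650 and 471 FPKM at 36 h, then 282, 280.0 and 275 FPKM at 48 h. The levels of the 3 genes, which differed at 24 h, lay close together at 48 h.

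The remaining pairs ranged from nearly parallel to unlike. PAS_chr1-4_0352, with 2381, 461 and 264 FPKM, and PAS_chr1-4_0353, with 1802, 346 and 201 FPKM, differed by 0.011 in their early and by 0.023 in their later change. PAS_chr2-1_0086 had 2537, 594 and 253 FPKM and PAS_chr2-1_0087 had 1916, 305 and 168 FPKM. PAS_FragD_0014, beside PAS_FragD_0013, had 1413, 244 and 195 FPKM, and their later changes differed by 0.81. PAS_chr2-1_0481 and PAS_chr2-1_0482 differed by 0.78 in the early and by 0.80 in the later change, the largest early difference of the 6 pairs.

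Genes next to the group by tag number, but not in it, had early shares of higher and lower genes near those of the whole table. There were 128 such genes with a value of at least 1 FPKM, and their medians were 69.98, 60.5 and 63.6 FPKM. At 36 h 27 of them, or 21.1%, were lower by 2-fold or more, against 19.4% of all genes, and 15 were at least 2-fold higher, or 11.7%, against 9.47%. At least 4-fold lower were 5 of the 128, or 3.91%, against 5.19% of all genes. Of these 5, PAS_chr1-4_0490 and PAS_chr3_0596 are the genes just under the level limit given above, beside PAS_chr1-4_0491, a gene of the group with 1845, 374 and 212 FPKM, and PAS_chr3_0595. In the later interval the 128 genes had a median change of 0.20, against 0.033 for all genes, and 9.38% were at least 2-fold lower, against 13.0%.

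The number of genes in the group depends on how the libraries are scaled. The median gene of the table changed by -0.21 from 24 to 36 h, and scaling by the median of ratios, which takes this shift out by construction and leaves 0.023, left 62 of the 73 genes past the limit of -2 and added none. Scaling by a trimmed mean left 63 and added none. From 36 to 48 h the median gene of the table changed by 0.033 as deposited, by 0.031 with the median of ratios and by 0.078 with the trimmed mean. With these scalings 26 and 23 of the 73 genes were 2-fold or more below their 36 h level.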

How the data were processed

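Per the labels' protocols, mRNA was selected on beads after bead-mill lysis and total RNA extraction, and a VAHTS Universal V6 kit was used for the libraries. Per the submitters' processing notes, CASAVA and HISAT2 2.1.0 were used. Which program made the values, with which build, annotation and strand setting, is not given in these sources. The authors deposited 1 FPKM value per gene and library, and depth is unknown.

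Columns were matched to times by the codes in the sample titles. Differences were taken on log2(FPKM + 1), which understates changes of low genes, over genes that reached 1 FPKM in some library (5028 kept, 12 removed). With 1 library per time no test was made, and higher or lower means past a fold rule of size. The members and lists were chosen with earlier results of these data known. Genes named are the 6 highest and 6 lowest at 24 h, the 6 highest at 48 h, the 6 at each end of the early and of the later change, those with a member at the next tag, and 3 just outside each limit. PAS_chr1-4_0491, outside that rule, was named after its values were seen. The available reference table, of 5305 genes, was that of another species, Komagataella pastoris, and 0 of the tags matched it. Of the genes in 11 gene lists 0 had a tag, so whether any of them belongs to the group could not be checked. Alternatives were pseudocounts of 0.1 and 10, scaling by the median of ratios or a trimmed mean (30% of ratios, 5% of levels on each side), other limits and filters. The counting was tested on simulated data. Python 3.11.15, numpy 2.4.6, pandas 2.3.3 and matplotlib 3.10.9 were used.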

Additional observations from a re-analysis of the deposited data

How the results depend on the processing

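Single libraries and an unknown depth set the limits here, above all for the few genes with low FPKM at 48 h. No paired analysis was possible because the time points were not replicated, and for the same reason no replicate could be left out. Among 47 alternative counts, some could hardly move. The count of genes 2-fold higher at 48 h than at 36 h was 0 throughout. All genes of the group were 2-fold or more below their 24 h level under every setting. Of the 47 counts, 42 stayed within 1.5 times that of the report, a wide limit that 53 genes against 73 also met. The exceptions follow from stricter limits: with a fall limit of -2.5 there were 40 genes, 16 of them 2-fold or more below their 36 h level and 40 below their 24 h level, with 1 consecutive pair, and with a 24 h limit of 2000 FPKM there was 1 pair. The median change from 36 to 48 h was -0.82 with a pseudocount of 10, -0.81 with trimmed-mean scaling, -0.82 with a 24 h limit of 500 FPKM, -0.89 with one of 2000 FPKM, -0.82 with a fall limit of -1.5 and -0.92 with one of -2.5. The median change from 24 to 48 h was -3.36, -3.14, -3.39, -3.46, -3.36 and -3.58 under the same settings in that order, and -3.16 with median-of-ratios scaling. The share of total FPKM at 48 h was 2.70% and 2.00% with the limits of 500 and 2000 FPKM, and 3.40% and 1.28% with fall limits of -1.5 and -2.5. Leaving out the 3 genes with a later change of 4-fold or more, chosen after seeing the data, gave medians of -0.82 and -3.39. Of 136 later changes of 34 named genes under pseudocounts and scalings, none differed in sign and 1 crossed the 2-fold limit, that of PAS_chr3_0194 with a pseudocount of 0.1.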
